A study of Saccharomyces cerevisiae and Schizosaccharomyces pombe with 8 samples.

Results

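The 33 genes described here encode the proteasome of the budding yeast Saccharomyces cerevisiae. They were taken by name from a list of core particle and regulatory particle subunits, and all 33 were found by symbol among the 6002 nuclear coding genes of the RefSeq annotation of assembly R64. On that list 32 genes encode subunits and 1, RPN4, encodes the transcription factor of the proteasome genes, not a subunit. The values are reads at the 3' ends of polyadenylated RNA, from 2 libraries of wild type grown in minimal medium and 2 libraries of wild type grown in rich medium. The 8 libraries of the series also include 4 of the fission yeast S. pombe, which are not analysed here. The labels give the genotype only as wild type. The strain background, the recipes of the media and the growth stage are not given in the sources used here, nor whether libraries of the same medium came from separate cultures, so p-values measure only the spread between these libraries, which may be technical.

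The minimal medium libraries held 1174191 and 1253021 reads, and the rich medium libraries 2057269 and 1558011. The proteasome genes took 8125 and 8177 of them in minimal medium (0.692% and 0.653% of nuclear reads) and 12096 and 9308 in rich medium (0.588% and 0.597%). A gene's reads are those on its strand from its start codon to 500 nt past its stop codon, or to the start codon of a downstream gene where that came first, which shortened the window of 11 of the 33 genes. Between libraries of the same medium, the proteasome genes differed by a median of 0.20 on the log2 scale in minimal and 0.20 in rich medium, against 0.20 and 0.26 over all 4650 genes tested.

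The proteasome degrades proteins that carry ubiquitin chains. Its core particle is a barrel of stacked rings: the outer alpha rings gate the entrance, and the inner beta rings hold the protease sites. The regulatory particle caps the barrel. Its base holds the ring of Rpt ATPases that unfold substrates, with the scaffolds Rpn1 and Rpn2 and ubiquitin receptors, and its lid holds the deubiquitinase Rpn11. In budding yeast the subunit genes share the transcription factor Rpn4, which binds a short element in their promoters and is itself a short-lived substrate of the proteasome, a known feedback loop that adjusts proteasome supply to demand.

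That element, GGTGGCAAA, is what the sequences before these genes have in common. It lay within 300 nt before the start codon, on either strand, in 27 of the 33 genes, and in 73 of all 6001 coding genes with such a window, which is 1.22%. Without its first base, as GTGGCAAA, it was found in 30 of the 33 and in 2.65% of all windows. The shorter form is contained in the longer one, and it added PRE5, PUP1 and RPN8. RPN10, RPN13 and RPN4 had neither form in this window. Each of the 27 genes had a single match to the longer form, 76 to 175 nt before the start codon with a median of 112 nt, 19 on the strand of the gene and 8 on the other strand. A match describes the letters only and is not evidence that Rpn4 was bound.

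**Figure D1:**
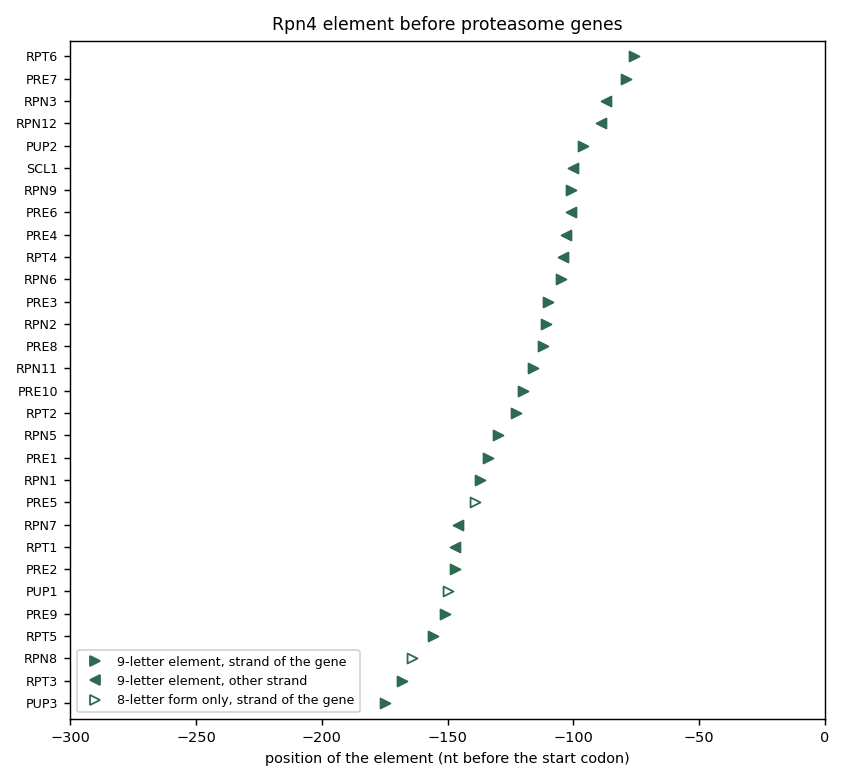
Position of the Rpn4 element before 30 proteasome genes, as nt before the start codon (horizontal axis), in R64. Each row is a gene. Filled triangles mark the 9-letter element and open triangles the 8-letter form alone, pointing right when it lies on the strand of the gene. The matches lie between 76 and 175 nt before the start codon.

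The following stretches of R64 carry the element in the genes that were called higher in minimal medium, shown because the same element stands before genes that moved in opposite directions. They are written 5' to 3' on the strand of the gene with the element in capitals, so that it reads TTTGCCACC where it lies on the other strand. PRE5 and PUP1 hold only the shorter form.
PUP1: cccggccgaGTGGCAAAataccaaaa
PRE2: cagcaaaagGGTGGCAAAacgaagaat
RPT1: ttaccgaatTTTGCCACCcgaaaacta
PRE5: tattatagaGTGGCAAAattaaaaat
RPN6: ggttccaagGGTGGCAAAtgttggtag
PUP2: accaagaccGGTGGCAAAagagtaacc
RPT6: tgcgagcgaGGTGGCAAAagttgtaat
The genes called lower in minimal medium, and PRE4, which had a change of similar size that was not called, carry it as follows.
RPN9: ctttcatccGGTGGCAAAagtaagaac
PRE4: ggtttagaaTTTGCCACCttaaatacg
RPN7: taagttaagTTTGCCACCcattgagga
PRE3: acggaatccGGTGGCAAAaaagggaaa
RPN5: tgacttttcGGTGGCAAAatgcaaagg
The printed stretch of PRE2 lies at chrXVI:732185-732211, its element ending 147 nt before the start codon, and that of RPN7 at chrXVI:742291-742317, 146 nt before it, both with the gene on the plus strand. Both genes lie on chromosome XVI about as far from their element, and they were called in opposite directions between the media (below, log2 change 0.70 and -0.80). The element of PRE2 lies on the strand of the gene and that of RPN7 on the other strand. The pair was picked with the calls known, and whether the element bears on the changes was not tested.

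Levels are given as CPM, a gene's reads as a share of the library scaled by the trimmed mean of M-values (TMM). A read marks 1 3' end, so a gene's count was not divided by its length. The genes of this one complex were read at very different levels. PRE2, a beta subunit with the chymotrypsin-like protease site (chromosome XVI, 732349 to 733212), had 2200.2 and 1992 CPM in minimal medium, against 1389 and 1198 CPM in rich medium. RPT3, an ATPase of the base, had 1124 and 1154 CPM in minimal medium, against 850.1 and 875 CPM in rich medium. At the other end PRE9, an alpha subunit, had 3.60 and 7.67 CPM in minimal medium, against 8.46 and 8.92 CPM in rich medium, from 4 to 17 reads a library. Of those 44 reads, 20 end just after the start codon, within reach of the gene upstream, CAF130, and may not be reads of PRE9. The mean level spanned 372-fold over the 33 genes in minimal and 149-fold in rich medium, with medians of 74.0 and 68.6 CPM. PRE9 is the low end of both spans. How evenly the 3' ends of different genes were captured was not tested, so the spans compare reads and not amounts of RNA. The 5 genes with the most reads, PRE2, RPT3, PRE5, RPN5 and PRE10, made up 71.3% and 69.6% of the summed CPM of the 33 in minimal medium, against 64.5% and 64.6% in rich medium.

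**Figure D2:**
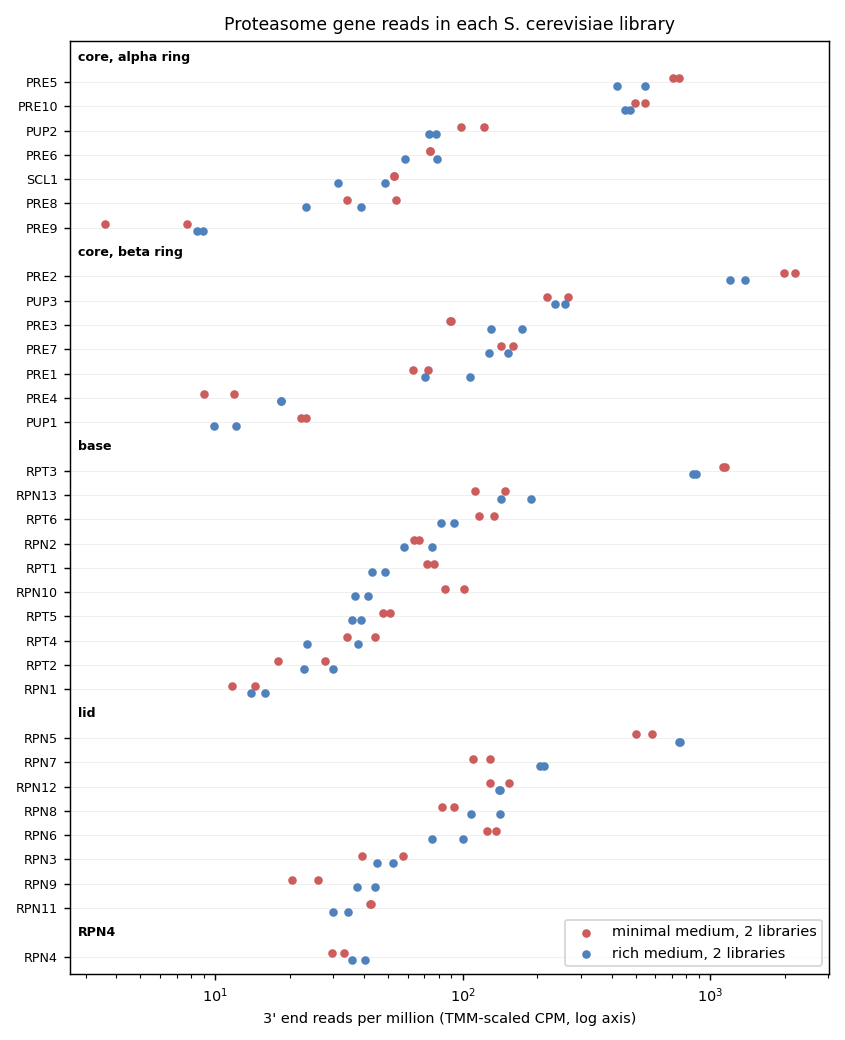
CPM of each of the 33 proteasome genes (rows, grouped by ring or subcomplex) on a log axis, with 1 point per library, minimal medium above rich medium in each row. PRE2 is the highest gene in every library and PRE9 the lowest.

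Minimal against rich medium asks how the expression of the wild type differs with the nutrients supplied. The proteasome genes did not move in a common direction: 8 of the 33 rose, 4 fell and 21 were not called (edgeR's quasi-likelihood test, Benjamini-Hochberg adjusted p under 0.05 over 4650 genes). Over all genes tested, 17.7% rose and 15.7% fell, 33.4% in either direction, so the share of proteasome genes called, 36.4%, lies near that of any gene. All 33 passed the filter on low counts. Their median log2 change was 0.10, against -0.01 over all genes, and single genes lay between -0.82 and 1.26. The CPM of the groups did not overlap for 21 of the 33 genes, as for 66.4% of all genes. The cultures were measured in bulk and CPM is a share of reads, so fewer cells that express a gene and less of its RNA per cell cannot be told apart.

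In the alpha ring 2 of 7 genes rose and 0 fell, with a median log2 change of 0.43. That is 28.6% and 0%, against 17.7% and 15.7% of all genes tested, a difference that was not tested. PRE5 (chromosome XIII, 901709 to 902413) had 750.5 and 705 CPM in minimal medium, against 419 and 546 CPM in rich medium. Both minimal medium libraries lay above both rich medium libraries, and the gene rose (log2 change 0.59, SE 0.17, adjusted p = 0.00912). PUP2 had 98.9 and 122 CPM in minimal medium, against 78.1 and 73.3 CPM in rich medium, again without overlap, and rose (log2 change 0.54, SE 0.20, adjusted p = 0.0365). Of the other 5, SCL1, PRE8, PRE10 and PRE6 had positive changes of 0.10 to 0.52, and PRE9 had -0.60 (SE 0.45), none of them called.

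The beta ring, which holds the protease sites, moved in both directions. PRE2 rose by 0.70 on the log2 scale (SE 0.17, adjusted p = 0.00247), or 1.62-fold. PUP1, with the trypsin-like site (chromosome XV, 630966 to 631751), had 23.4 and 22.2 CPM in minimal medium, against 9.95 and 12.1 CPM in rich medium, from 19 to 26 reads a library. Both minimal medium libraries lay above both rich medium libraries, and it rose (log2 change 1.05, SE 0.32, adjusted p = 0.0133). PRE3, with the caspase-like site (chromosome X, 435163 to 435926, the 1 gene of the 33 annotated with an intron), had 89.0 and 89.5 CPM in minimal medium, against 130.3 and 173 CPM in rich medium. Its minimal medium libraries lay below those of rich medium, and it fell (log2 change -0.76, SE 0.20, adjusted p = 0.00442). PRE4, a beta subunit without a protease site, had 8.99 and 11.9 CPM in minimal medium, against 18.4 and 18.5 CPM in rich medium. The groups did not overlap, but with 10 to 37 reads a library the change was not called (log2 change -0.81, SE 0.35, adjusted p = 0.0735). PRE1, PUP3 and PRE7 were not called, with changes of -0.40, -0.03 and 0.11. The 3 genes of the protease sites therefore differed in direction, PRE2 and PUP1 being higher and PRE3 lower in minimal medium.

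In the base 3 of 10 genes rose and 0 fell (30% and 0%, against 17.7% and 15.7% of all genes tested). RPN10, a ubiquitin receptor (chromosome VIII, 499079 to 499885), had 102 and 85.3 CPM in minimal medium, against 36.8 and 41.4 CPM in rich medium. Its libraries were far apart between the media, and its change was the highest of the 33 genes (log2 change 1.26, SE 0.22, adjusted p = 6.53e-05), a 2.39-fold difference. RPN10 is also 1 of the 3 genes with neither form of the Rpn4 element. RPT1, an ATPase, had 76.4 and 71.6 CPM in minimal medium, against 43.3 and 48.4 CPM in rich medium, and rose (log2 change 0.69, SE 0.22, adjusted p = 0.0147). RPT6, another ATPase, had 134 and 117 CPM in minimal medium, against 92.0 and 81.6 CPM in rich medium, and rose (log2 change 0.53, SE 0.19, adjusted p = 0.0373). In both ATPase genes the groups did not overlap. The ATPases RPT3, RPT4 and RPT5 had changes of 0.40, 0.33 and 0.40, and RPT2 of -0.22, none called. The second ubiquitin receptor, RPN13, had -0.35, and the scaffolds RPN1 and RPN2 had -0.18 and -0.04, also not called.

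The lid held 3 of the 4 genes that fell. Of its 8 genes 12.5% rose and 37.5% fell, against 17.7% and 15.7% of all genes tested. With so few genes these shares were not tested. RPN7 (chromosome XVI, 742454 to 743743) had 111 and 129 CPM in minimal medium, against 213 and 205 CPM in rich medium, and fell (log2 change -0.80, SE 0.18, adjusted p = 0.00139). RPN9 had 26.1 and 20.5 CPM in minimal medium, against 44.3 and 37.6 CPM in rich medium, from 24 to 89 reads a library, and fell (log2 change -0.82, SE 0.28, adjusted p = 0.0223). RPN5, the lid gene with the most reads, had 582 and 504 CPM in minimal medium, against 747 and 757 CPM in rich medium, and fell (log2 change -0.47, SE 0.17, adjusted p = 0.0296). In all 3 genes, which encode structural subunits of the lid, both minimal medium libraries lay below both rich medium libraries. RPN6 went the other way, with 137 and 125 CPM in minimal medium, against 75.6 and 100.1 CPM in rich medium, and rose (log2 change 0.58, SE 0.20, adjusted p = 0.0242), again without overlap. RPN8, the partner of RPN11 in the lid, had -0.51 (adjusted p = 0.0512), just short of the threshold, while RPN3, RPN12 and the deubiquitinase gene RPN11 had -0.02, 0.01 and 0.41. The lid's median log2 change was -0.25, that of the base 0.37, and the difference between them was not tested.

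RPN4, the transcription factor (chromosome IV, 415113 to 416708), had 29.7 and 33.3 CPM in minimal medium, against 40.3 and 35.7 CPM in rich medium. The minimal medium libraries lay below the rich medium libraries without overlap, by a change close to its error, and it was not called (log2 change -0.28, SE 0.26, adjusted p = 0.443). The activity of Rpn4 is known to be set largely by the stability of the protein, which these libraries do not measure.

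**Figure D3:**
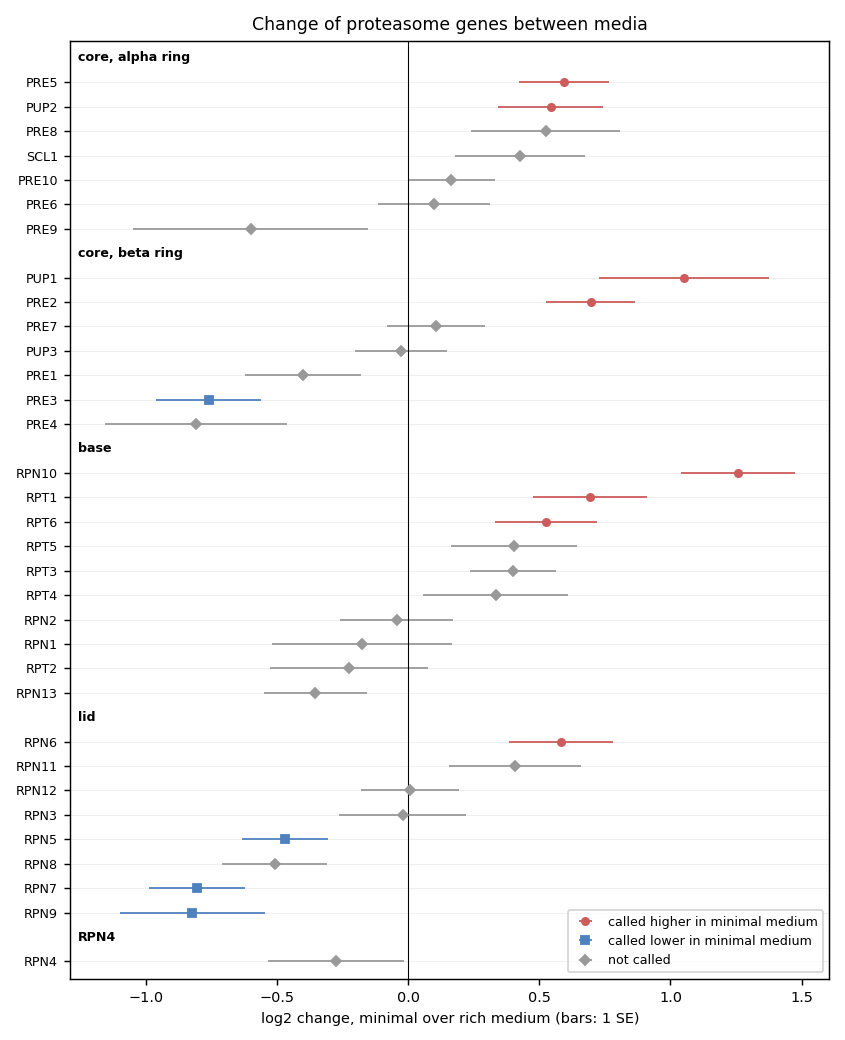
Log2 change of each of the 33 proteasome genes in minimal over rich medium (horizontal axis) with 1 SE on each side, from edgeR. Circles mark the 8 genes called higher, squares the 4 called lower and diamonds the 21 not called. In the alpha ring and the base the called genes lie right of 0, and in the lid 3 of 4 lie left of it. Over all genes tested 17.7% were called higher and 15.7% lower.

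Most of these calls were lost when either minimal medium library was left out, and some were lost without rich medium replicate 1. A lone library of a medium was assumed to vary like the other medium's pair. Over all genes, replicates differed more in rich than in minimal medium (chi-square per degree of freedom 9.27 and 2.42), a measure that grows with depth, and the rich medium libraries were deeper. For the proteasome genes the median log2 difference between replicates was 0.20 in both media. All 12 called genes kept the direction of their change in these fits. Without minimal medium replicate 1 edgeR called RPN10 alone, without minimal medium replicate 2 it called RPN10 and RPN7, and DESeq2 called PRE2, PRE3, PRE5, RPN10 and RPN7, each in the direction given above. Over all genes tested the share called in either direction was 13.9% without minimal medium replicate 1, 14.7% without minimal medium replicate 2 and 18.2% with DESeq2. Leaving out rich medium replicate 1 gave 8 higher and 4 lower proteasome genes, of which 9 were among the 12 named above: PUP1, RPN6 and RPN9 were no longer called (adjusted p = 0.0605, 0.0672 and 0.0535), and RPN8, RPT3 and RPT4 were (36.4% of all genes called). Leaving out rich medium replicate 2 gave 11 and 6, with all 12 kept and PRE1, PRE8, RPN13, RPT3 and SCL1 added (40.2%). RPN10 was called in all 10 alternatives (adjusted p from 2.27e-09 to 0.00656).

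The summed CPM was higher in minimal medium over all 33 genes, but not in every part of the complex. Over the 33 genes it was 7303 and 6972 CPM in minimal medium, against 6017 and 5933 CPM in rich medium. Without the 5 genes with the most reads it was 2098 and 2122 CPM in minimal medium, against 2136 and 2102 CPM in rich medium, so the higher sum lay within those 5. The core particle summed to 4308 and 4126 CPM in minimal medium, against 3160 and 3088.5 CPM in rich medium. The lid summed to 1193 and 1081 CPM in minimal medium, against 1410.3 and 1463 CPM in rich medium, and the base to 1772 and 1732 CPM, against 1407 and 1346 CPM. These sums are descriptions, and each is led by a gene with a large share of it (RPN5 in the lid, RPT3 in the base, PRE2 in the core particle and over all).

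The 3' untranslated region (3' UTR) of these genes was measured as the read-weighted distance of the 3' end past the stop codon, over reads 1 to 500 nt past it. In the 31 genes that averaged 20 or more such reads a library, transcripts ended 78.1 to 232 nt past the stop codon in minimal and 79.5 to 231 nt in rich medium. The median proteasome gene ended at 133 nt in minimal and 139 nt in rich medium, and the median of all 3597 genes at 135 and 133 nt. RPN11 and RPT2 had the shortest 3' UTRs in rich medium, at 79.5 ± 3.60 and 83.6 ± 5.32 nt (SD, n = 2), and did not differ from each other beyond that spread. RPN13 had the longest, with 232 ± 2.59 nt in minimal and 231 ± 0.910 nt in rich medium (SD, n = 2). PRE9 and RPN1 had too few reads.

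Between the media the 3' ends of proteasome transcripts stayed close to each other. The difference was under 10 nt in 27 of 31 genes, as in 3112 of all 3597, and 17 genes had a longer and 14 a shorter mean in minimal medium. limma called 0 proteasome genes and 0 of all 3597 genes (0% in either direction). Without adjustment 7 of 31 proteasome genes and 368 of all 3597 had p under 0.05, and the lowest adjusted p of a proteasome gene was 0.311 (RPN12). PRE5 was read almost wholly at 1 site and ended at 162 and 163 nt in minimal medium, against 163 and 163 nt in rich medium.

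Among the 4 genes with a difference of 10 nt or more, RPN9 ended at 136 and 121 nt in minimal medium, against 103 and 91.2 nt in rich medium (difference 31.5 nt, SE 7.38, limma adjusted p = 0.405). Its groups did not overlap, but single reads weigh on it: at 435 nt past the stop codon it had 3 and 2 reads in minimal medium, against 2 and 1 in rich medium. RPT4, an ATPase of the base, ended nearer the stop codon, at 132 and 134 nt in minimal medium, against 149 and 162 nt in rich medium (difference -22.4 nt, SE 5.35, limma adjusted p = 0.405). PRE4 differed in the same direction (-16.0 nt, SE 3.57), and RPT1 in the other (10.9 nt, SE 10.3), with overlap of the groups in RPT1. None of these was called. The groups did not overlap in 16 of the 31 genes, a larger share than the 41.9% of all genes, and the difference was not tested.

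**Figure D4:**
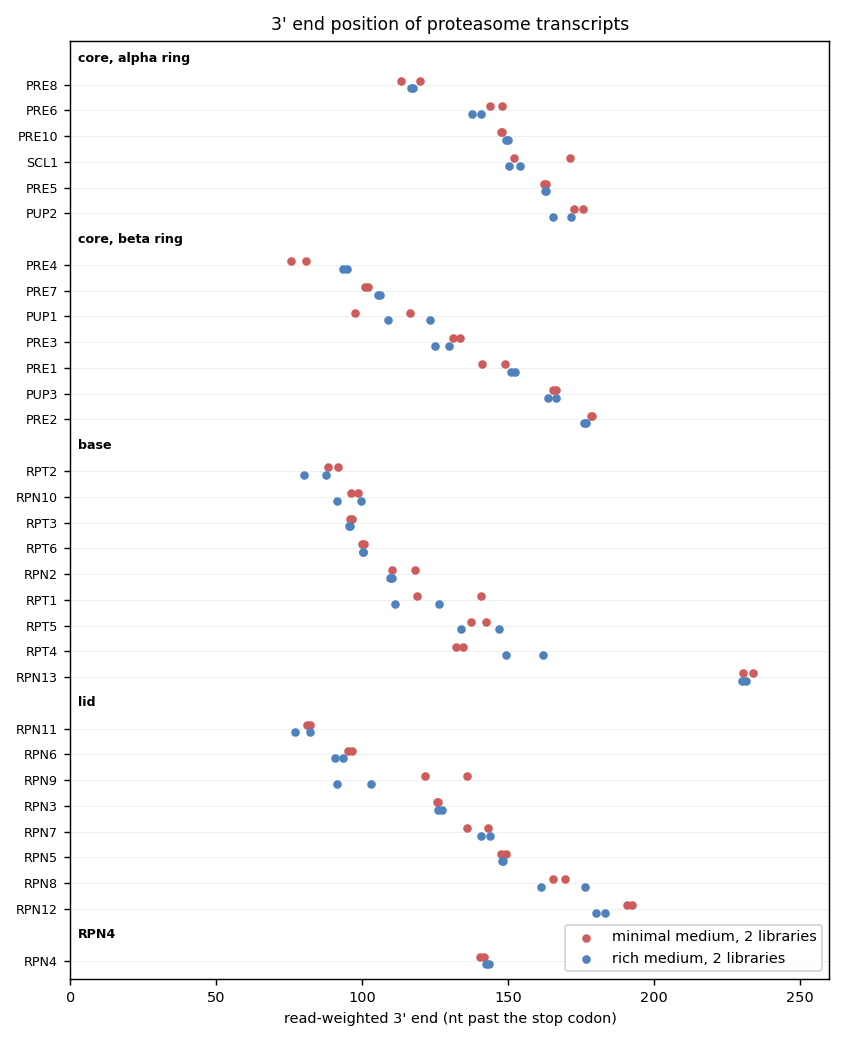
Read-weighted 3' end, in nt past the stop codon, of the 31 proteasome genes with enough reads, 1 point per library, minimal medium above rich medium in each row. Points of both media lie together for most genes, and RPN9 and RPT4 show the widest separation, in opposite directions.

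Most proteasome genes used more than 1 cleavage site. With positions within 24 nt joined and sites of at least 5% of a gene's reads kept, 8 of the 33 genes had 1 site, 25 had 2 or more and 4 was the highest number. The 25 include PRE9, whose sites inside the coding region hold reads that may belong to CAF130. They also include genes with sites little over 24 nt apart, such as PRE6 (26 nt). The share with 2 or more, 75.8%, was close to the 72.8% of all 4529 coding genes tested for expression. The most used site lay 56 to 238 nt past the stop codon, with a median of 124 nt, against 123 nt over all genes. A budding yeast efficiency element, written TACATA or TACGTA, and also as TATATA or TATGTA, the known binding sequences of the cleavage factor Hrp1, stood on the strand of the gene 20 to 80 nt before that site in 24 of the 33 genes (72.7%) and in 65.5% of all genes.

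The use of the distal of a gene's 2 most used sites was tested in the 22 genes whose 2 sites together averaged 20 or more reads. edgeR called 0 of them toward the distal and 0 toward the proximal site, against 1.71% and 0.529% of all 2457 genes, 2.24% in either direction. DESeq2 also called 0, against 0.611% of all genes. Without adjustment edgeR gave p under 0.05 for 4 of the 22, RPN6, PRE1, RPN12 and PRE6, and for 344 of all 2457. Their site sequences in R64, 10 nt on each side of the most used recorded position, which is in capitals, are given on the strand of the gene because these genes came closest to a called shift in site use.
RPN6 proximal: tcctaaataaActtataaaat
RPN6 distal: tatgatttttCttttttttct
PRE1 proximal: atcagaaataAgacaatttct
PRE1 distal: tggcagagtgAgatatcatct
RPN12 proximal: tctctcccggAgaacaaagta
RPN12 distal: atcactcataAgaataataat
PRE6 proximal: acattatatcAtttaatacga
PRE6 distal: tgtttttcggAtttcggatct
RPN6 has its sites 37 nt apart (chromosome IV, positions 285330 and 285293, 61 and 98 nt past the stop codon). Its distal site took 94.0% and 95.8% in minimal medium, against 84.1% and 90.3% in rich medium (log2 change of distal over proximal 1.43, SE 0.49, adjusted p = 0.0912). Both media favoured the distal site, and the groups did not overlap. In PRE1, a beta subunit without a protease site (chromosome V, positions 178566 and 178597, 135 and 166 nt past the stop codon), the distal site took 54.5% and 68.8% in minimal medium, against 75.5% and 76.9% in rich medium (log2 change of distal over proximal -0.96, SE 0.40, adjusted p = 0.22), lower in both minimal medium libraries. RPN12, a lid subunit (chromosome VI, positions 253391 and 253535, 62 and 206 nt past the stop codon), used its distal site for 91.2% and 91.3% in minimal medium, against 86.1% and 84.4% in rich medium (log2 change of distal over proximal 0.84, SE 0.39, adjusted p = 0.303). PRE6, an alpha subunit (chromosome XV, positions 256223 and 256249, 122 and 148 nt past the stop codon), used it for 80.2% and 82.1% in minimal medium, against 70.9% and 69.7% in rich medium (log2 change of distal over proximal 0.86, SE 0.43, adjusted p = 0.348). RPN12 and PRE6 thus had higher distal use in both minimal medium libraries, without passing the test. The sites of PRE6, PRE1 and RPN6 lie 26, 31 and 37 nt apart, not far over the joining distance of 24 nt. Whether sites this near are separate was not tested. With positions within 48 nt joined, 17 proteasome genes were tested and 0 called. The groups did not overlap in 12 of the 22 genes, and in 44.0% of the 2456 genes with a read at either site in every library.

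**Figure D5:**
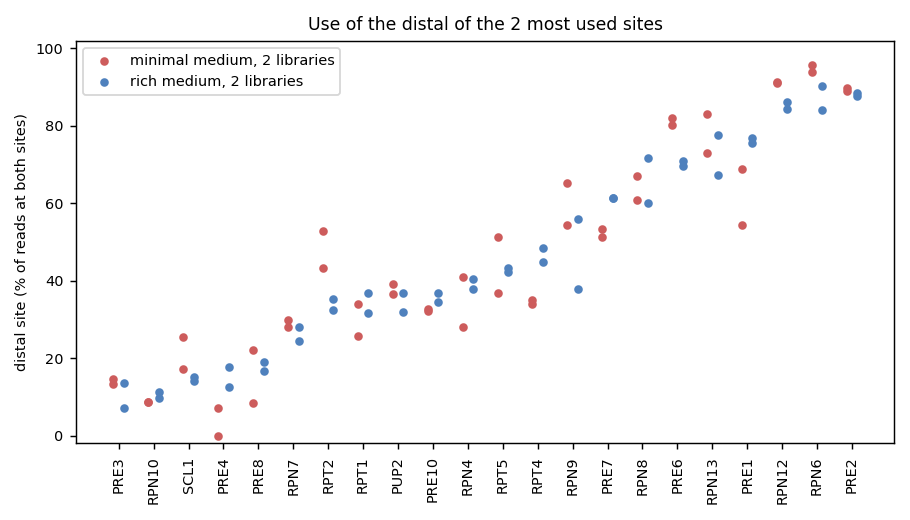
Share of reads at the distal of the 2 most used sites (percent of the reads at both) for 22 proteasome genes, ordered by their mean in rich medium, 1 point per library, minimal medium left of rich medium for each gene. The order of the genes, from a mean in rich medium of 10.4% (PRE3) to 88.1% (PRE2), spans far more than the distance between the media.

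Few reads ended inside the coding regions. From start to stop codon lay 0.135% and 0.196% of the reads of the 33 genes in minimal medium (11 and 16 reads), against 0.422% and 0.387% in rich medium (51 and 36 reads). Over all coding genes the shares were 1.60% and 1.66% in minimal medium, against 1.96% and 2.07% in rich medium. In 18 of the 33 genes no such read was found in any library. These shares were not tested.

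The genes with the most such reads were RPN7, PRE9 and RPN4. RPN7 had 1 and 2 coding-region reads in minimal medium, against 17 and 10 in rich medium, which is 0.813% and 1.32% of its reads, against 3.97% and 3.11%. They lay 983 to 1036 nt past the first base of the start codon, most often at position 743444 of chromosome XVI, 299 nt before the end of the stop codon, with 1 and 0 reads in minimal medium, against 10 and 7 in rich medium. In RPN4, 1 and 0 reads in minimal medium, against 7 and 4 in rich medium, ended 3 to 75 nt past the first base of the start codon. PRE9 had 20 of its 44 reads in all libraries 12 to 58 nt past the same base. These positions are also 266 to 312 nt past the stop codon of CAF130, the upstream gene on the same strand, and to which gene they belong was not tested. Without them PRE9 held 1 and 5 reads in minimal medium, against 11 and 7 in rich medium.

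Of the 39 further genes of the ubiquitin and proteasome pathway that were listed, 35 had enough reads, and 2 rose and 5 fell. That is 5.71% and 14.3% of the 35, against 17.7% and 15.7% of all genes tested, with a median log2 change of 0.00 against -0.01. SEM1, which encodes a small lid subunit not among the 33 genes, had 98.9 and 134 CPM in minimal medium, against 259 and 372 CPM in rich medium, and fell (log2 change -1.43, SE 0.20, adjusted p = 5.7e-06). Of the assembly chaperones 9 of 10 were tested, of which NAS2, for a chaperone of the base, fell (log2 change -1.25, SE 0.38, adjusted p = 0.013) and none rose. UMP1, the chaperone of core particle maturation, had a change of -0.07 and was not called. DSK2, for a shuttle receptor that brings ubiquitinated proteins to the proteasome, had 22.5 and 13.6 CPM in minimal medium, against 6.96 and 10.2 CPM in rich medium, and rose (log2 change 1.09, SE 0.37, adjusted p = 0.024).

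Among the 5 genes of ubiquitin supply 0 rose and 2 fell (0% and 40%), against 17.7% and 15.7% of all genes tested. That difference was not tested. UBI4, the stress-induced polyubiquitin gene, had 42.2 and 57.1 CPM in minimal medium, against 84.6 and 82.2 CPM in rich medium, and fell (log2 change -0.74, SE 0.22, adjusted p = 0.01). RPS31, which encodes ubiquitin fused to a ribosomal protein, fell as well (log2 change -0.74, SE 0.19, adjusted p = 0.00303). RPL40A and RPL40B, near-identical copies, were not called, and whether reads are shared between them was not tested. UBA1, for the ubiquitin-activating enzyme, had a change of -0.01. None of the 7 tested genes of the Cdc48 unfoldase and its cofactors was called, with a median log2 change of 0.00, and 1 had an unadjusted p under 0.05 in edgeR. Of 7 genes that act on RPN4 or its protein, HSF1, the heat shock transcription factor, had 69.2 and 79.3 CPM in minimal medium, against 26.4 and 38.9 CPM in rich medium, and rose (log2 change 1.20, SE 0.24, adjusted p = 0.000361). MUB1, which acts with the ubiquitin ligase Ubr2 in degrading Rpn4, had 20.7 and 20.5 CPM in minimal medium, against 39.3 and 57.4 CPM in rich medium, and fell (log2 change -1.22, SE 0.29, adjusted p = 0.00181). RAD6, UBR2, PDR1, PDR3 and YAP1 were not called.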

How the data were processed

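The authors deposited, for each library, the count of reads that end at each position of each strand, in files without a header or any recorded normalization. Per the submitters' processing notes the authors aligned with Bowtie2 (version not given); the only assembly they name is one of S. pombe. Per the labels' protocols the 3' ends of poly(A)+ RNA were amplified. At 18999 positions with at least 20 reads over the 4 libraries the next base in R64 was A at 0.221% (at 26.3% for the base 8 nt downstream), so positions were read as R64 coordinates. The base at the position itself was A at 80.1%. Recorded positions thus stand at the last A of a run, and cleavage within such a run cannot be placed. A nested gene kept the reads within its bounds, and a downstream gene those from its start codon on.

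Expression was tested with edgeR 4.0.16 (TMM, filterByExpr), site use with edgeR on reads of both sites with terms for library, site and medium by site, and 3' end position with limma 3.58.1 (eBayes, trend), in R 4.3.3, each on all genes of the 4 libraries, with Benjamini-Hochberg adjustment; tests were run on simulated data first. An exact permutation test of 2 against 2 libraries cannot go below 0.333. DESeq2 1.42.0 was an alternative. Replicates differed by more than counting error (chi-square per degree of freedom 2.42 in minimal and 9.27 in rich medium). Values per library are given for RPN4, every gene called, and the 3 highest and 3 lowest changes; related genes are named where called. The genes and lists were chosen with earlier results of these data known.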

Additional observations from a re-analysis of the deposited data

How the results depend on the processing

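Of the 8 proteasome genes called higher and the 4 called lower in expression, DESeq2 called 3 and 2. Leaving out 1 library gave 1 to 11 higher and 0 to 6 lower: from 1 and 0 when minimal medium replicate 1 was dropped to 11 and 6 when rich medium replicate 2 was, the lone library of a medium being assumed to vary like the other medium's pair. With the replicate number as a block the counts were 8 and 5. Same-numbered libraries share only a number in the labels, so whether they form pairs is not known. The correlation of the replicate differences of both media was 0.147 over 2574 genes, which does not settle it. With RLE factors, no filter, and the 2 other read windows, 7 to 8 genes were higher and 4 to 5 lower (27.4% to 36.7% of all genes called, the block included). The 14 genes given with values per library kept their direction under all 10 alternatives. For site use and 3' end position, 0 proteasome genes were called under every alternative run, leave-one-out and replicate block fits included (0% to 3.01% and 0% to 3.89% of all genes). The Rpn4 element was found in 27 to 30 of the 33 genes over both forms and windows of 300 and 500 nt, the longer one chosen after seeing the data. Depth limits the genes with the fewest reads: PRE9, RPN1, PUP1 and PRE4 averaged 11, 20.8, 22.8 and 22.5 reads a library.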

Other observations

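The 9-letter Rpn4 element also stood within 300 nt before 46 coding genes outside the 33, of which 32 were tested. In 8 of them it is the same stretch of DNA as that of a proteasome gene, seen from the gene on its other side. Among the tested, 6 rose and 7 fell in minimal medium, so 13 of 32 were called, with a median log2 change of -0.14. Of all genes tested 17.7% rose and 15.7% fell, 33.4% in either direction, with a median of -0.01. Whether the 32 genes differ from this background was not tested. The risers, given here with their log2 change and chosen after the values were seen, were HUA1 (1.36), PDI1 (1.22), for the protein disulfide isomerase of the endoplasmic reticulum, CCT6 (1.20), for a subunit of the cytosolic chaperonin, ABZ1 (0.98), IOC2 (0.72) and KIN2 (0.72). Those that fell were AHC2 (-1.44), YPI1 (-1.18), YTH1 (-1.07), HUB1 (-1.02), REB1 (-0.88), for a general regulatory factor, UBI4 (-0.74) and DEF1 (-0.54). YTH1 shares its element with RPN7, and both fell, with changes of -1.07 and -0.80. YPI1 shares its element with RPN11, and YPI1 fell by 1.18 on the log2 scale while RPN11 had a change of 0.41 that was not called. NOP14 (0.40), GCD1 (-0.41) and PMT1 (0.19) also share an element with a proteasome gene and were not called. Their partners are RPN5 (-0.47), RPT4 (0.33) and RPN6 (0.58), in that order. The rest that share an element were not tested.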
